A study of Mus musculus with 8 samples.

Results

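The genes described here are 8 of the 55558 Ensembl genes in the deposited count table: Pkhd1, Pkd1, Pkd2, Dzip1l, Bicc1, Glis2, Glis3 and Ganab, all of them genes in which mutations cause or favour cystic kidneys. They were taken by symbol from the table, each symbol matched 1 feature, and all 8 were abundant enough to be tested. The study set 1 mouse kidney cell line against another. mK4 cells are labelled as metanephric mesenchyme differentiated towards epithelium, and mK3 cells as metanephric mesenchyme that was not induced. Both are given as wild type and untreated, and both grew in DMEM with fetal bovine serum. There were 3 RNA libraries of mK4 and 3 of mK3, depleted of ribosomal RNA, and 1 library of each line for ATAC-seq, in which a transposase cuts accessible DNA. Each state is represented by 1 cell line, so differentiation and other differences between the lines cannot be told apart. Separate cultures are not stated in the labels, and the p-values therefore describe library-to-library spread that may be technical. In bulk RNA of this kind, fewer cells of a type and less RNA per cell cannot be told apart.

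Cystic kidney disease is largely a disease of the primary cilium, the antenna-like organelle of tubule cells. Polycystin-1 and the cation channel polycystin-2, encoded by Pkd1 and Pkd2, form a receptor-channel complex there, and fibrocystin, encoded by Pkhd1, is a large single-pass membrane protein of the same structure. The other genes act around them. Dzip1l works at the base of the cilium, Ganab trims the sugar chains of polycystin-1 in the endoplasmic reticulum, Bicc1 binds messenger RNAs, and Glis2 and Glis3 are zinc finger transcription factors.

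The gene counts came to 134359330 to 146187601 per mK4 library and 133899125 to 141972545 per mK3 library. Values below are CPM, the counts scaled to a common library size with TMM factors, which correct for differences in RNA composition. They are not adjusted for gene length, so the level of a gene is compared between lines and not with that of another gene. Of 10 kidney epithelial marker genes, 4 were higher in mK4 and none was lower, with a summed level of 148 to 168 CPM in mK4 libraries and 0.640 to 1.20 CPM in mK3 libraries. Cdh16, Pax8 and Pax2 made up most of it. The defining epithelial genes Cdh1, Epcam, Krt8, Krt18, Cldn7 and Esrp1 averaged at most 0.275 CPM in mK4 and at most 0.242 CPM in mK3. Of 10 mesenchymal markers 8 were lower in mK4 and 2 higher, with sums of 309 to 328 CPM in mK4 and 1855 to 2330 CPM in mK3. Col1a1 and Col1a2, with means of 584 and 981 CPM, made up most of the mK3 sum. Vim, which was called higher in mK4, made up most of the mK4 sum with a mean of 231 CPM. Leukocyte markers summed to at most 1.67 CPM in mK4 and 1.84 CPM in mK3, and endothelial markers to at most 8.07 CPM in mK4 and 4.63 CPM in mK3. The endothelial markers went in both directions. Cdh5 was called higher in mK4, with a mean of 7.35 CPM against 0 in mK3. Kdr and Tek were called lower, at 0 in mK4 and means of 1.44 and 1.78 CPM in mK3, and Pecam1 was not called. The part of these differences in the results below was not tested.

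Among the 8 genes, Pkhd1 and Bicc1 rose in mK4 and Pkd2 fell, and the remaining 5 did not pass the test (edgeR's quasi-likelihood test, Benjamini-Hochberg adjusted p under 0.05 over all tested genes). Of all 20405 tested genes, 20.8% were called higher and 19.5% lower in mK4, so 3 called of 8 is close to the 40.3% called in either direction. The median log2 fold change of the 8 genes was -0.01, against 0.02 over all tested genes. The 3 libraries of the lines did not overlap in 5 of the 8 genes, against 56.1% of all tested genes. The genes differed from each other in size of change, and those called also in direction. Pkhd1 ranked 511th among all tested genes by increase and Bicc1 2701st. These ranks include genes at 0 in every mK3 library, whose fold changes rest on a small added count. Cys1, with a log2 fold change of 10.4, is such a gene. The absolute change of Ganab was larger than that of only 0.642% of tested genes.

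**Figure D1:**
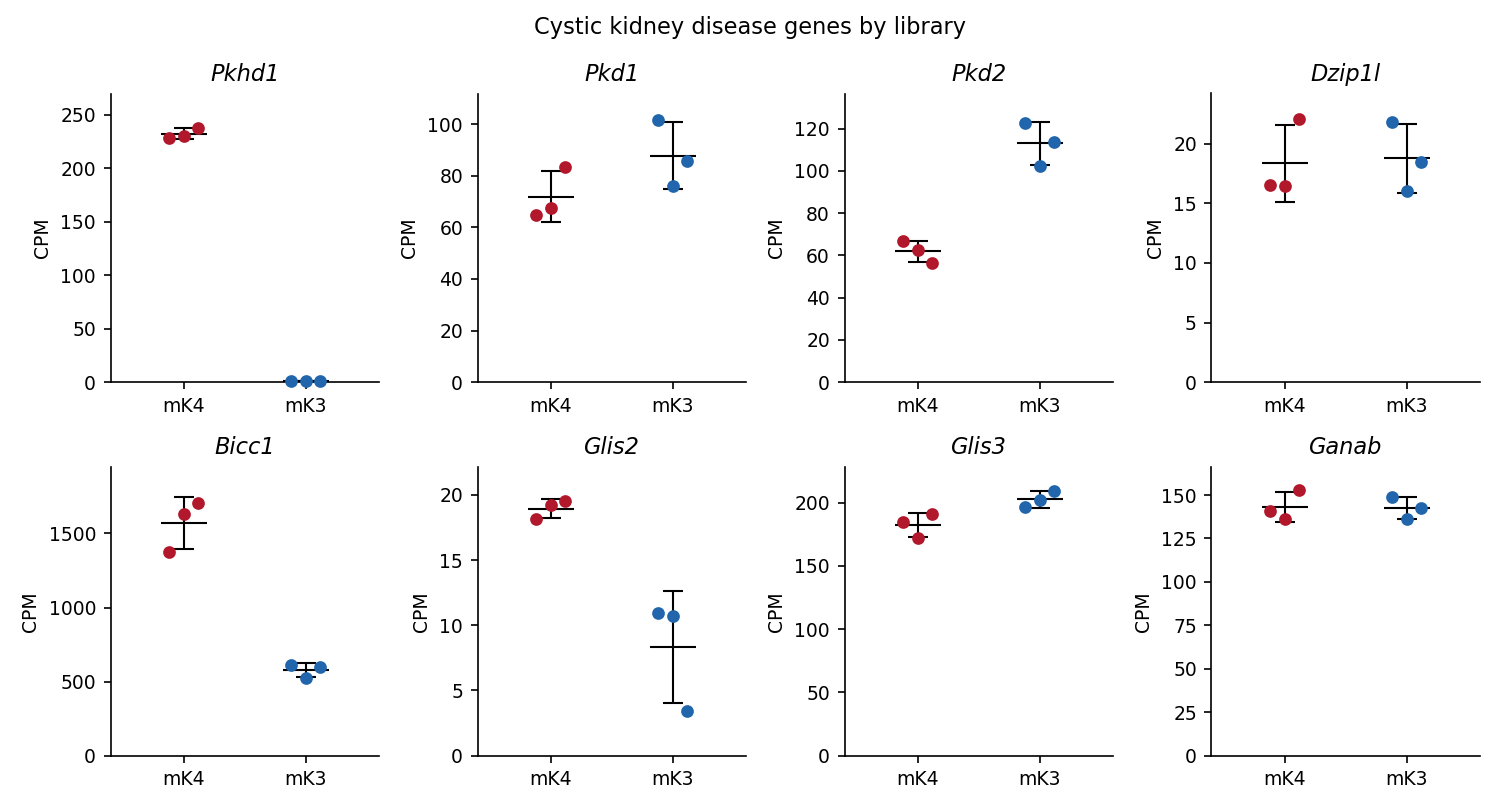
CPM after TMM scaling (linear axes from 0) of the 8 genes in each of the 3 mK4 and 3 mK3 libraries; points are libraries, horizontal bars the mean and whiskers the SD. Pkhd1 lies at 228 to 238 CPM in mK4 and near the axis in mK3, the libraries of Bicc1 and Pkd2 separate by line, and 1 mK3 library of Glis2 lies at 3.40 CPM below the others.

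Pkhd1 encodes fibrocystin, the protein lost in autosomal recessive polycystic kidney disease, and in the embryo its messenger RNA is found in ureteric bud derivatives and maturing tubules. It had 31183, 35032 and 35739 counts in the mK4 libraries, against 179, 163 and 135 counts in the mK3 libraries. All mK4 libraries were far above all mK3 libraries, and the gene was read in every library of both lines. In CPM these were 228, 230 and 238 in mK4 and 1.25, 1.23 and 1.09 in mK3, a log2 fold change of 7.61 (SE 0.10; 195-fold; adjusted p = 1.64e-06). It passed the test under all 12 alternatives, with log2 fold changes of 7.55 to 7.71.

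The 250 bases before the RefSeq start of Pkhd1 are shown because this start had no ATAC-seq peak within 1 kb in either line, as described with the other starts. They lie at chr1:20618058-20618307 in GRCm38.p6 on the minus strand, and the capitals mark their 4 CpG dinucleotides.
Pkhd1: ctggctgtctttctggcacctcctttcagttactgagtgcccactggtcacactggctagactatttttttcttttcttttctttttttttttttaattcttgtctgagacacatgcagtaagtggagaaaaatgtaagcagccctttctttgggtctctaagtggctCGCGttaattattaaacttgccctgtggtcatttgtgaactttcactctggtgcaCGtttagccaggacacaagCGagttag
Of the 32851 RefSeq promoters of 300 bases (250 before the start and 50 after), 31.4% held fewer CpG than the window of Pkhd1.

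Cys1, which encodes the cilium-associated protein cystin and is mutated in the cpk mouse, was read in mK4 and not in mK3. It had 121, 149 and 252 counts in mK4, against 0 in every mK3 library, which is at least 48.9-fold higher against a floor of 3 counts per mK3 library (adjusted p = 0.00145). The floor covers counting error only.

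The polycystin genes did not share a direction that passed the test. Pkd2 had 66.6, 62.6 and 56.4 CPM in the mK4 libraries, against 123, 102 and 114 CPM in the mK3 libraries. All mK4 libraries lay below all mK3 libraries, a log2 fold change of -0.87 (SE 0.10; 1.83-fold lower; adjusted p = 0.00102). The fall passed under all 12 alternatives, with log2 fold changes of -0.93 to -0.77. Pkd1 had 64.8, 67.4 and 83.2 CPM in mK4, against 102, 76.1 and 85.6 CPM in mK3. Here the libraries overlapped, and the log2 fold change of -0.29 (95% interval -0.64 to 0.07; adjusted p = 0.170) did not pass the test in any alternative. Whether the changes of Pkd1 and Pkd2 differ from each other was not tested. Tsc2, the tuberous sclerosis gene that overlaps Pkd1 in RefSeq and is deleted with it in a severe form of early cystic disease, averaged 63.1 ± 7.73 CPM in mK4 and 65.4 ± 6.30 CPM in mK3 (SD, n = 3 libraries; adjusted p = 0.770 in edgeR's test). The libraries are strand-specific per the labels, but the strand setting of the counting is not stated in them, so reads of overlapping genes may not have been told apart.

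**Figure D2:**
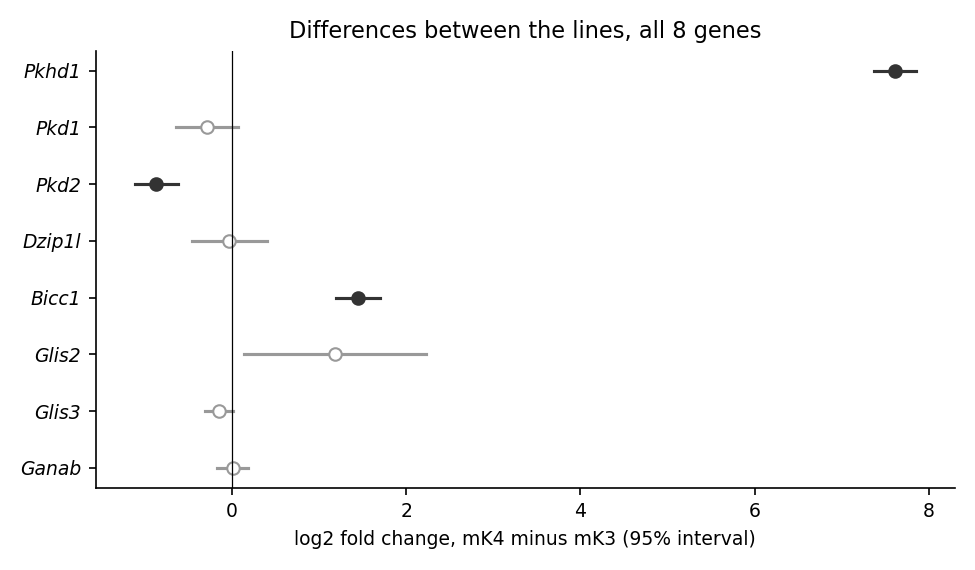
Log2 fold change of mK4 minus mK3 for the 8 genes, with 95% intervals from the quasi-likelihood fit; filled points passed the test and open points did not. Pkhd1 stands at 7.61, Bicc1 at 1.45 and Pkd2 at -0.87, and the intervals of Pkd1, Dzip1l, Glis3 and Ganab include 0.

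Bicc1 encodes an RNA-binding protein with KH domains whose mouse mutants bpk and jcpk develop cystic kidneys, and in frog and mouse it is described to raise polycystin-2. It had 1374, 1633 and 1703 CPM in mK4, against 610, 522 and 597 CPM in mK3. The lowest mK4 library was more than double the highest mK3 library. The log2 fold change was 1.45 (SE 0.10; 2.72-fold; adjusted p = 0.000164) and stayed between 1.38 and 1.55 in 12 alternatives, all past the threshold. Both known protein partners of Bicc1 with ankyrin repeats were measured. Anks6, a gene of nephronophthisis, rose to 12.1 ± 1.84 CPM in mK4, against 5.59 ± 1.42 CPM in mK3 (adjusted p = 0.0107 in edgeR's test). Anks3 fell to 10.6 ± 0.411 CPM in mK4, against 14.6 ± 1.21 CPM in mK3 (adjusted p = 0.0202 in edgeR's test), a call that held in 5 of 12 alternatives (adjusted p 7.67e-05 to 0.0729) and was lost without mK3 replicate 1 or 2 or any mK4 replicate and with the replicate number as a block (adjusted p = 0.0536). 4930533K18Rik, an unnamed gene that overlaps Bicc1 in RefSeq, was represented by 16755, 19195 and 17583 counts in mK4, against 8054, 6130 and 1694 counts in mK3 (adjusted p = 0.0368). That call held in 6 of 12 alternatives and was lost, among others, without mK3 replicate 2 (adjusted p = 0.0771), without any mK4 replicate (0.0806 to 0.0869) and with the replicate number as a block.

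The Glis genes encode zinc finger factors related to the Gli factors of Hedgehog signalling. Glis2, mutated in a form of nephronophthisis, had 18.1, 19.2 and 19.5 CPM in mK4, against 10.9, 10.7 and 3.40 CPM in mK3. No library of mK3 reached the level of an mK4 library, but mK3 replicate 3 had 422 counts where the other mK3 libraries had 1571 and 1418. The log2 fold change of 1.18 (95% interval 0.14 to 2.23) did not pass the test (adjusted p = 0.0732). Without mK3 replicate 3 it was 0.81 and passed (adjusted p = 0.00552), and it also passed in DESeq2 (adjusted p = 0.0138) and under a filter of 1 CPM or more in each library (adjusted p = 0.0395), out of 12 alternatives with adjusted p of 0.00552 to 0.148. Glis3, whose loss in people joins neonatal diabetes and hypothyroidism with polycystic kidneys, had 184, 172 and 191 CPM in mK4, against 196, 202 and 209 CPM in mK3. The mK3 libraries were all higher, but the difference was small, with a log2 fold change of -0.15 (95% interval -0.31 to 0.01; adjusted p = 0.116) that passed in no alternative. Glis1, the remaining relative, had 14, 0 and 10 counts in mK4, against 82, 86 and 101 counts in mK3 (adjusted p = 0.0580). It passed in 2 of the 11 alternatives in which it was tested, DESeq2 (adjusted p = 0.00534) and without mK4 replicate 2 (adjusted p = 0.0166).

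Dzip1l, a gene of recessive polycystic kidney disease that is needed for the barrier at the base of the cilium, had 16.6, 16.4 and 22.1 CPM in mK4, against 21.8, 16.0 and 18.5 CPM in mK3. The libraries of the lines were intermixed, and the log2 fold change was -0.03 (95% interval -0.46 to 0.40; adjusted p = 0.905), a value that turned positive with library totals in place of TMM. Its paralogue Dzip1 fell to 23.7 ± 2.43 CPM in mK4, against 47.8 ± 4.97 CPM in mK3 (SD, n = 3 libraries; adjusted p = 0.00115 in edgeR's test). Ganab, which encodes the catalytic subunit of glucosidase II, had 141, 136 and 153 CPM in mK4, against 149, 136 and 142 CPM in mK3. Its libraries were intermixed too, with a log2 fold change of 0.01 (95% interval -0.17 to 0.18; adjusted p = 0.944), which turned negative under median-of-ratios scaling. Prkcsh, which encodes the other subunit of glucosidase II and is mutated in polycystic liver disease, fell to 42.2 ± 2.74 CPM in mK4, against 53.1 ± 2.35 CPM in mK3 (adjusted p = 0.0230 in edgeR's test). That call held in 7 of 12 alternatives and was lost without mK3 replicate 1 or 3, without mK4 replicate 1 or 2 (adjusted p 0.0614 to 0.0871) and without TMM scaling (adjusted p = 0.110).

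Related disease genes were read from 4 lists. Among 20 tested nephronophthisis genes other than Glis2, most of which encode proteins of the cilium and its base, 10 were higher in mK4 and 1 was lower, against 20.8% and 19.5% of all tested genes, and with Glis2 the median log2 fold change was 0.56. With Glis2 included, the number higher ran from 8 to 11 over the 12 alternatives, and was 8 without mK3 replicate 2 or mK4 replicate 1. Ttc21b, a component of retrograde transport in the cilium, rose to 78.5 ± 3.09 CPM in mK4, against 38.8 ± 1.30 CPM in mK3 (adjusted p = 0.000157 in edgeR's test). Inversin and its partners give their name to a segment of the cilium. Invs rose to 91.7 ± 8.82 CPM in mK4, against 57.6 ± 3.91 CPM in mK3 (adjusted p = 0.00279 in edgeR's test). Nek8, the kinase of the same segment, averaged 2.43 ± 0.379 CPM in mK4 and 1.88 ± 0.402 CPM in mK3 and did not pass (adjusted p = 0.314 in edgeR's test). Cep83, a centriole appendage gene, was the 1 lower gene at 32.9 ± 2.91 CPM in mK4 and 44.3 ± 3.42 CPM in mK3 (adjusted p = 0.0201 in edgeR's test). Its call was lost in 6 of 12 alternatives, among them without replicate 1 or 3 of either line (adjusted p 0.0510 to 0.0608) and with the replicate number as a block (adjusted p = 0.0754).

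Of the 13 genes of glycoprotein maturation and liver cysts, 2 were higher and 4 lower, against 20.8% and 19.5% of all tested genes. Their median log2 fold change was -0.13. Sec63, a component of the channel through which new proteins enter the endoplasmic reticulum, fell to 108 ± 6.12 CPM in mK4, against 169 ± 13.5 CPM in mK3 (adjusted p = 0.00164 in edgeR's test), and Dnajb11, a co-chaperone there, fell to 54.6 ± 2.82 CPM in mK4, against 76.5 ± 6.24 CPM in mK3 (adjusted p = 0.00640). The count of 4 lower genes was 2 without mK3 replicate 3 or without mK4 replicate 1 or 2. Alg6, which adds glucose to the sugar chain precursor, rose to 46.0 ± 1.24 CPM in mK4, against 28.4 ± 0.381 CPM in mK3 (adjusted p = 0.000706 in edgeR's test). Lrp5, a Wnt co-receptor gene, rose to 151 ± 29.1 CPM in mK4, against 53.0 ± 15.2 CPM in mK3 (adjusted p = 0.00369). Of 10 relatives of the polycystins, fibrocystin, Dzip1l, the Glis factors and Ganab, 6 were tested, with Dzip1 the 1 lower gene, none higher and a median log2 fold change of -1.11. That median includes Pkhd1l1 and Glis1, with only 101, 64 and 0 and 14, 0 and 10 counts in mK4, and Pkd2l2, whose libraries overlapped. None of these passed the test. Leaving out replicate 2 or 3 of either line gave 2 lower genes.

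Of 16 other genes of cystic or tubulointerstitial kidney disease, 13 were tested. Of these, 5 were higher and 2 lower in mK4, against 20.8% and 19.5% of all tested genes. Their median log2 fold change was 0.35, which stays the same with genes at 0 in mK3 set to their lower bounds. Lrp2, which encodes the endocytic receptor megalin of the proximal tubule, rose to 261 ± 13.3 CPM in mK4, against 5.58 ± 1.30 CPM in mK3 (adjusted p = 1.78e-05 in edgeR's test). Flcn, mutated in Birt-Hogg-Dubé syndrome with kidney cysts, fell to 25.4 ± 2.74 CPM in mK4, against 54.1 ± 14.0 CPM in mK3 (adjusted p = 0.00841). The count of 2 lower genes was 1 without any library other than mK3 replicate 3. Umod, the gene of the main protein of urine, and Ren1 were at 0 in all 6 libraries. Over all lists, with the 8 genes left out, 17 of 52 tested genes were higher and 8 lower, beside the same shares of all tested genes. Of the 17 higher genes, 10 were on the nephronophthisis list.

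**Figure D3:**
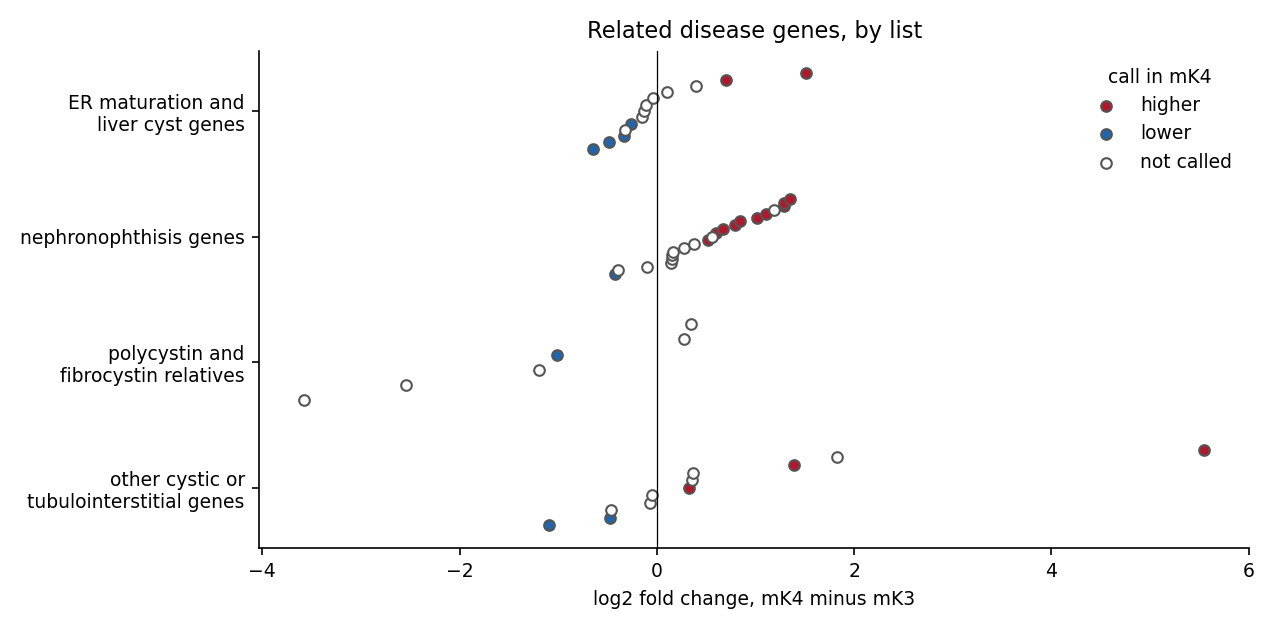
Log2 fold change of mK4 minus mK3 for every tested gene of the 4 lists of related disease genes; filled points passed the test (red higher, blue lower) and open points did not, and genes at 0 in every mK3 library are left out. Most filled points of the nephronophthisis list lie above 0, and Lrp2 stands alone at 5.55 in the last list.

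MicroRNAs of the miR-17 seed are described in mouse models to repress Pkd1 and Pkd2 and to promote cyst growth. Their mature sequences are shown because they share the seed, bases 2 to 8 and here in capitals, and differ behind it.
miR-17-5p: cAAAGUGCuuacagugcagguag
miR-20a-5p: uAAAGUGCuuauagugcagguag
miR-93-5p: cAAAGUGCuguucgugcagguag
miR-106b-5p: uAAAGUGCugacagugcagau
Sequences are those of RefSeq with GRCm38.p6. The first pair is encoded on chromosome 14 and the second pair on chromosome 5, and in an edgeR fit over all 461 tested mature miRNAs the pairs moved in opposite directions. Of all these miRNAs 32.5% were called higher in mK4 and 35.1% lower. miR-17-5p had 390, 561 and 568 CPM of miRNA counts in mK4, against 317, 351 and 341 CPM in mK3. Its lowest mK4 library was still above every mK3 library (log2 fold change 0.59, SE 0.15; adjusted p = 0.00224). miR-20a-5p rose likewise, to 280 ± 44.7 CPM in mK4, against 184 ± 12.1 CPM in mK3 (adjusted p = 0.00112). miR-93-5p had 1459, 1987 and 1886 CPM in mK4, against 3415, 3334 and 3279 CPM in mK3. Of 7 mature miRNAs with this seed, 6 were looked up, and miR-93-5p was the most abundant of these in both lines. It was lower in every mK4 library (log2 fold change -0.91, SE 0.13; adjusted p = 2.3e-05). miR-106b-5p fell to 102 ± 8.66 CPM in mK4, against 148 ± 22.2 CPM in mK3 (adjusted p = 0.00312), a call lost with library totals in place of TMM (adjusted p = 0.0743). The X-linked relatives miR-20b-5p and miR-106a-5p had at most 2 counts in a library.

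**Figure D4:**
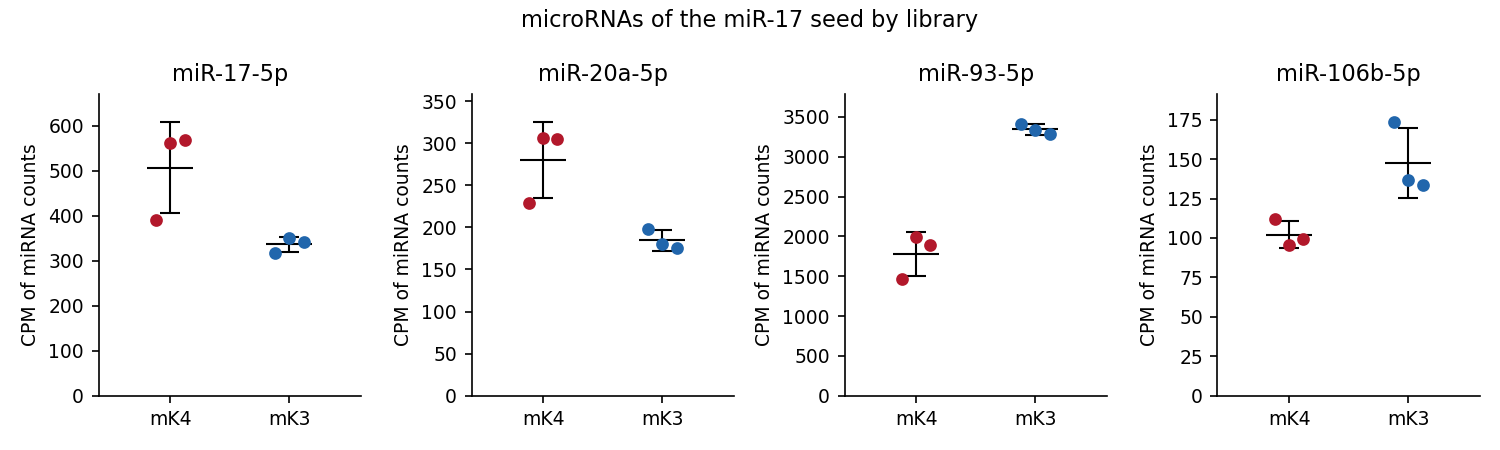
CPM of miRNA counts (linear axes from 0) of 4 microRNAs of the miR-17 seed in each of the 3 mK4 and 3 mK3 libraries; points are libraries, horizontal bars the mean and whiskers the SD. miR-17-5p and miR-20a-5p are higher in every mK4 library, and miR-93-5p and miR-106b-5p are lower in every mK4 library.

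Chromatin at the starts of these genes was compared by the authors' peak lists, 1 per line, so no difference between them has a replicate check. The fold of a peak over background is the authors' value. These folds were not scaled between the lines, and the mK4 list is the longer, with 34710 peaks against 22477 in mK3. How folds of shared peaks differ between the lines in general is not given here. Of the 6 genes with a start in the RefSeq promoter table, 5 had a peak within 1 kb of it in mK4 and the same 5 had one in mK3, against 69.8% of tested genes in mK4 and 63.6% in mK3. Pkhd1 was the exception. Its nearest peaks lay 1358 bases upstream of the start in mK4, with a fold of 5.63, and 1300 bases upstream in mK3, with a fold of 3.85, and they overlapped each other. The single peak within its body of 560304 bases, near the far end, was listed in both lines, with a fold of 4.54 in mK4 and 7.83 in mK3. Among called genes at least 2-fold higher in mK4 with a RefSeq start, 592 of 1702 (34.8%) had no start peak in either line, against 25.8% of all tested genes with a start.

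At Pkd2 the peak over the start had a fold of 3.61 in mK4 and 3.67 in mK3, and at Pkd1 of 7.14 in mK4 and 4.32 in mK3. The RefSeq body of Pkd2 begins further upstream than this start, and within 1 kb of that outer end a peak was listed in mK4 alone, with a fold of 4.0. At Dzip1l the folds were 6.39 in mK4 and 3.94 in mK3, and at Ganab 8.66 in mK4 and 5.42 in mK3. The peak of Glis3 reached the start in mK3, with a fold of 4.54, and ended 38 bases from it in mK4, with a fold of 3.97. Bicc1 and Glis2 are not in the promoter table, and each had a peak within 1 kb of an end of the gene in both lines. At Glis2 this was the end of higher coordinate. The peak there also spans an end of Pam16, which overlaps Glis2 in RefSeq, so it cannot be assigned to Glis2 alone. At the other end of Glis2 a peak was listed in mK4 alone, with a fold of 2.79 and a -log10 q of 3.20. Dzip1l had a peak in mK4 alone within the gene, 15972 bases from the start, with a fold of 7.94.

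All 8 genes had at least 1 peak over the gene body in mK4 and all 8 in mK3, against 70.3% of tested genes in mK4 and 62.7% in mK3, shares that are not adjusted for the length of a gene. Per 100 kb of gene body the 8 genes together held 2.7 peaks in mK4, against 2.92 over all tested genes, and 1.63 peaks in mK3, against 2.06 over all tested genes. These pooled values are weighted by length. Pkhd1, the longest gene at 560304 bases, held 0.178 in each line, and Bicc1 held 2.11 in mK4 and 0.844 in mK3. Each of the other genes lay above the value of all tested genes, at 4.75 to 9.73 in mK4 and 2.46 to 7.72 in mK3. Over the bodies of the 8 genes the mK4 list held 38 peaks and the mK3 list 23, out of 34710 peaks in all in mK4 and 22477 in mK3. A total of 17 of the 38 mK4 peaks (44.7%) had no overlapping peak in mK3, against 53.0% of the whole mK4 list, and 2 of the 23 mK3 peaks (8.70%) had none in mK4, against 28.1% of the whole mK3 list. Glis3 alone held 20 of the mK4 peaks and 11 of the mK3 peaks, and 11 of these mK4 peaks and both unmatched mK3 peaks were without a partner. Its strongest peak in mK4, with a fold of 12.2, lay 290457 bases into the gene and overlapped an mK3 peak with a fold of 4.53. The strongest peak of Glis3 in mK3, with a fold of 7.41, lay 33457 bases into the gene and overlapped an mK4 peak with a fold of 7.14. Bicc1 held 5 peaks in mK4 and 2 in mK3. Its strongest peak was shared, at chr10:71146904-71147522 with a fold of 7.81 in mK4 and at chr10:71146814-71147502 with a fold of 4.67 in mK3 (mm10), and the strongest peak in mK4 alone, at chr10:71058602-71059160, had a fold of 6.19.

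**Figure D5:**
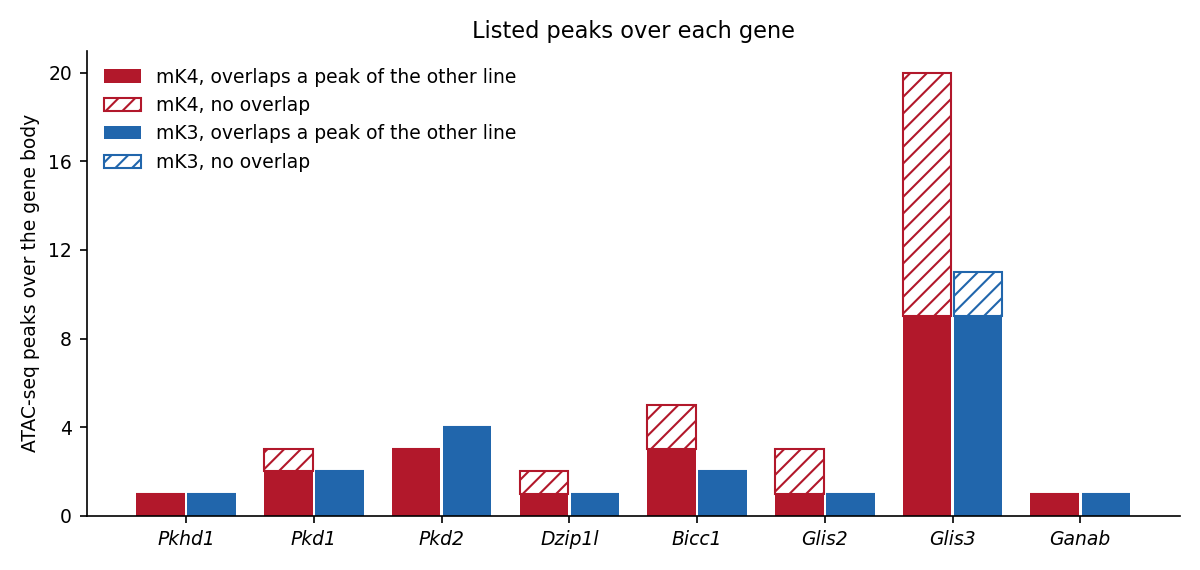
Number of listed ATAC-seq peaks over the RefSeq body of each gene, mK4 left and mK3 right (1 library each); filled parts overlap a peak of the other line by at least 1 bp and hatched parts do not. Glis3 holds 20 peaks in mK4 and 11 in mK3, and Pkhd1 holds 1 in each.

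The promoters of the genes differ in sequence type. The window of Glis3 holds 32 CpG dinucleotides in 300 bases, that of Ganab 24, that of Pkd1 18, that of Pkd2 9 and that of Pkhd1 4, against a median of 7 over all promoters; Dzip1l has 2 listed starts with 7 and 12. The stretch before Ganab is shown for comparison with that of Pkhd1 above, since it carries a start peak in both lines and a change that did not pass the test. It lies at chr19:8897807-8898056 in GRCm38.p6 on the plus strand, and the capitals mark its 20 CpG dinucleotides, where the 250 bases before Pkhd1 hold 4. An end of Ints5, 166 bases from Ganab in RefSeq, lies within this stretch and under the start peak in both lines.
Ganab: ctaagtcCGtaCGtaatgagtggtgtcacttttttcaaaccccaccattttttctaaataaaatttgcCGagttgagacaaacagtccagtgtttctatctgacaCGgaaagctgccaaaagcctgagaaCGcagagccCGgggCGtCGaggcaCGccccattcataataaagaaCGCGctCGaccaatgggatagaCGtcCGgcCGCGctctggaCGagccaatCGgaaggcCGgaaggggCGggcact
Searched on both strands, TGGGTGGTC of the Gli and Glis type occurs in 0.253% of all promoters and TATAAA in 13.6%, and neither is in the windows of these 6 genes, which says only that these letters are not there.

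The nearest tested genes on the chromosomes were called in both directions. They lay up to 2290543 bases away and 5 of them overlapped the gene in question. Of these 16 genes, 1 on each side, 4 were called higher in mK4 and 3 lower. This is close to the 20.8% and 19.5% of all tested genes. The matrix protein gene Spp1, beside Pkd2, rose to 379 ± 19.7 CPM in mK4, against 152 ± 9.70 CPM in mK3 (adjusted p = 6.44e-05 in edgeR's test), where Pkd2 fell. Rfx3, a transcription factor gene of ciliated cells 244181 bases from Glis3, rose to 369 ± 3.19 CPM in mK4, against 174 ± 6.08 CPM in mK3 (adjusted p = 4.53e-05). Dbr1, beside Dzip1l, fell to 11.3 ± 0.816 CPM in mK4, against 19.7 ± 1.57 CPM in mK3 (adjusted p = 0.00279). Zfp951, 296426 bases from Pkd2, had 152, 323 and 589 counts in mK4, against 1458, 1169 and 972 counts in mK3 (adjusted p = 0.0181), and lost its call without mK3 replicate 1 or 2 or mK4 replicate 2 (adjusted p 0.0508 to 0.0679). On the sides of Pkhd1, Crispld1, at that largest distance, had 0 counts in mK4 and 371, 342 and 218 in mK3, and 4930486I03Rik, which overlaps Pkhd1 in RefSeq, had 90, 26 and 36 counts in mK4, against 0 in every mK3 library.

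By the smallest root mean square difference of centred log2 CPM over the 6 libraries, the genes most like Bicc1 were Cbr2 (0.05), the receptor phosphatase gene Ptprg (0.07) and Dop1b (0.07). Ptprg had 1542 ± 73.3 CPM in mK4 and 554 ± 27.7 CPM in mK3. Those most like Pkhd1 were Zfp286 (0.06), Tmem151b (0.09) and Cyyr1 (0.12), each with 350 to 479 counts per mK4 library and 0 in every mK3 library. At 0, the added prior count of 2 sets the level in mK3, so this likeness is in the spread between libraries and the added count more than in the size of the fold.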

How the data were processed

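The authors deposited raw counts of reads for 59004 features in 6 RNA libraries. Per the submitters' processing notes the tools included STAR 2.7.10a, HTSeq 2.0.2, Bowtie2 and MACS3 with the build mm10; the step each one served and the peak settings are not stated there. The deposited peak lists give a fold over background (a ratio), -log10 p and q, and a display score that was not used.

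Genes and mature miRNAs were fitted separately with edgeR 4.0.16 in R 4.3.3 (filterByExpr, TMM, robust glmQLFit and glmQLFTest, mK4 against mK3, all 6 libraries), with Benjamini-Hochberg adjustment over all tested features. The SE is the log2 fold change divided by the square root of F. DESeq2 1.42.0, 2 other scalings, 2 other filters, the replicate block and leaving out each library were the 12 alternatives. Peaks were joined to RefSeq genes of GRCm38.p6, which is mm10, in Python 3.11.15, with 1 bp as an overlap. Promoters and miRNAs were matched by symbol or name, 6 of 8 and 6 of 6.

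The genes and lists were chosen with earlier results of these data known. Named genes were all 8, up to 2 called genes per list and direction, further listed genes, the called neighbours, and the 3 genes most like each called gene with an absolute log2 fold change of at least 1. Replicate pairs differed by more than sampling noise. Circular RNAs carry no coordinates in the table and are not used here. Some listed genes and a sequence motif are not reported here.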

Additional observations from a re-analysis of the deposited data

How the results depend on the processing

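The calls of Pkhd1, Bicc1 and Pkd2 held in all 12 alternatives. The number of the 8 genes called higher was 2 or 3, the third being Glis2, and the number called lower was 1 throughout. With the replicate number of the labels as a block, 2 were higher and 1 lower, 3281 of all genes were higher and 3129 lower (4237 and 3988 without it), and the calls of Cep83, Anks3, 4930486I03Rik (adjusted p = 0.0717) and 4930533K18Rik were lost. Same-numbered libraries of the lines did not deviate together over all tested genes (r = -0.0191, 0.0207 and 0.00673). The labels state no pairing, and a shared batch that moved only some genes was not tested. Using library totals in place of TMM moved the median log2 fold change of all genes by 0.11 and that of the miRNAs by 0.19. The reversals under it were within that shift: Dzip1l at 0.072 and Tsc2 at 0.052. Ganab turned to -0.0090 under median-of-ratios scaling and -0.0090 in DESeq2. Leaving out 1 library gave -0.19 to 0.090 for Dzip1l, -0.043 to 0.051 for Ganab and -0.16 to 0.025 for Tsc2. The lower genes of glycoprotein maturation were 2 under library totals and 2 to 4 with a library left out. The lower nephronophthisis genes were 2 under median-of-ratios scaling, in DESeq2 and with at least 1 CPM in all libraries, 0 under library totals and with the block, and 0 to 1 with a library left out. Among the relatives DESeq2 called 1 higher and 3 lower, and 1 to 2 were lower with a library left out. Of the other disease genes, 3 were higher with at least 1 CPM in all libraries. That filter left 10 of them to be tested and removes any gene at 0 in mK3, such as Cys1. Among the other disease genes 1 was lower under library totals, with the block and, at the least, with a library left out (1 to 2). Library totals left 1 lower miRNA among those shown with the miR-17 seed. Peaks with -log10 q of at least 10 numbered 21 over the gene bodies in mK4 and 13 in mK3; a window of 5 kb gave Pkhd1 a start peak in both lines. With 3 libraries per line, small differences such as those of Pkd1 and Glis3 are bounded only by the intervals given.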
